A study of Mus musculus with 36 samples.

Results

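The distal chromosome ends were defined as the last 3 Mb of each of the 19 mouse autosomes, cut into 20 kb bins counted back from the last base of the mm9 assembly. This gave 150 bins per end and 2850 bins of the 123624 on the autosomes, or 2.31% of them. The study used Repli-seq, which labels newly made DNA with BrdU, sorts cells into early and late S phase and sequences the nascent DNA of each fraction, to ask how RIF1 and the MCM helicase set replication timing (RT) in B cells. Of its 36 libraries in 7 groups, 8 lie behind the B cell maps used here. CH12 shLacZ is a mouse B cell lymphoma line, a single cell line, grown with IL4, CD40 and TGF beta stimulation and carrying an infection-control shRNA against LacZ. The priB WT group holds primary activated splenic B cells without a Rif1 deletion, for which the labels give no age, sex or strain. Each of these groups had 2 replicates of an early and a late library. The authors merged them into 1 map, so no value below has a replicate error and no test between cell types was possible. The labels tie the map named for MEF WT (mouse embryonic fibroblasts) to no sample, and it is given as the authors' map. Each map assigns every stretch of the genome to an early (E), middle (M) or late (L) replicating state. The maps give the states as numbers without names, so the names E, M and L were set in advance. They were then checked with 2 properties over the whole autosomes. E and L never touched (0 contacts in each map), and protein-coding gene starts per Mb were highest in E, as in the CH12 shLacZ map with 18.9 starts in E against 9.44 in M and 3.81 in L. Read depth is unknown from the maps, as are the RT values that separate the states, and these can differ between maps.

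Replication timing is the order in which parts of the genome are copied during S phase. Early replication goes with gene-rich, GC-rich, transcribed chromatin and late replication with gene-poor chromatin near the nuclear lamina. Mouse autosomes carry their centromere next to the proximal telomere, so the distal end is the one far from it. Telomeres themselves are tandem TTAGGG repeats. RIF1 was first known from yeast telomeres, where it delays replication, and in several mammalian cell types it binds large domains along the chromosome arms. In primary B cells, the study found nearly all of its binding sites to be narrower peaks, mostly in early-replicating chromatin.

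The assembled sequence of the ends held few unknown bases, which matters for reading a timing state up to its last base. This count does not show how near the assembly comes to the telomere, so distances here are from the last assembled base. Unknown bases made up 0.116% of the 2850 bins (66129 bases), and 1 bin consisted wholly of them. At 4 ends the last 20 kb held between 27 and 108 copies of TTAGGG, while each of the other 15 held at most 8, and a full 20 kb end bin held a median of 4. TTAGGG was searched on both strands and occurred in the middle 120 bases of 4.80% of 2831 full end bins (136 windows) on either strand. The last 120 bases of a pair of ends are shown, on the forward strand of mm9, for the largest and the smallest E share in the CH12 shLacZ map, with ties broken by the higher L share. Capitals mark G and C.
Autosome 15, largest E share, chr15:103494855-103494974: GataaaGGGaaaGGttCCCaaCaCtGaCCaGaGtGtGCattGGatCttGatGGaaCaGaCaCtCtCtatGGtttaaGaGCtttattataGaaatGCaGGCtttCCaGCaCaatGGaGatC
Autosome 17, smallest E share, chr17:95272532-95272651: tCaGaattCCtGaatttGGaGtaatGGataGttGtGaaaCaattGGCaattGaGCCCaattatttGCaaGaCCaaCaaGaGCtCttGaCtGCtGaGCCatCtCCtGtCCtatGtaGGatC
The GC content of these stretches was 42.5% at end 15 and 41.7% at end 17. Both stretches held 0 copies of TTAGGG. Neither lay in an annotated gene, and the nearest protein-coding genes were Glycam1 at 99.3 kb and 2610044O15Rik at 108 kb. All 4 ends with the repeats had an M terminal domain in all 3 maps, as did 7 of the other 15.

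A further pair of windows, each the central 300 bases of a bin on the forward strand of mm9, shows an early and a late stretch of unlike base composition within the ends. Capitals mark G and C. They come from the GC-richest end bin that was E in all 3 maps (57.6% GC over the bin) and the GC-poorest one that was L in all 3 maps (33.4%).
Early in all 3 maps, chr11:119869851-119870150: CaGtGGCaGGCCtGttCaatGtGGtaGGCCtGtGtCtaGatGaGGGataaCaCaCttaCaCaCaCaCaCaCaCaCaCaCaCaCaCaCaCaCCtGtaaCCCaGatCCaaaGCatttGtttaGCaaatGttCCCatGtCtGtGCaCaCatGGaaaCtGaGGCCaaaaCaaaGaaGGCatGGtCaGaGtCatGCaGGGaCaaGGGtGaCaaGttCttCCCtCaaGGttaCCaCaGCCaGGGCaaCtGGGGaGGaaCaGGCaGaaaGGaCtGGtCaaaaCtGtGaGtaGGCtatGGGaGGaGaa
Late in all 3 maps, chr10:129449851-129450150: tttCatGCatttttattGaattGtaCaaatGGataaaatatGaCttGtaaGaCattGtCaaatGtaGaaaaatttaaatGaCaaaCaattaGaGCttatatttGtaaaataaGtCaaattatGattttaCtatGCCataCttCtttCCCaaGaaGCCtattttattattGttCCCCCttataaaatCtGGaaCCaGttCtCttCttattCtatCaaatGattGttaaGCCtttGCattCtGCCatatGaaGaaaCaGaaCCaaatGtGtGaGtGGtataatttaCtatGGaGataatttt
The early window, with 49.7% GC, lay in Aatk, a kinase gene of the nervous system, and overlapped one of its annotated exons with no coding part marked. The late window, with 28.0% GC, lay in no annotated gene, 4.21 kb from the olfactory receptor gene Olfr820.

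The ends together held more E and less L than the remainder of the autosomes, but single ends went both ways. In CH12 shLacZ cells, 1023 of 2850 end bins were E, or 35.9% (Wilson 95% interval 34.2 to 37.7%), where 23.7% of all autosomal bins with a state were E. L took 33.5% of end bins (31.8 to 35.3%) against 48.7% of all autosomal bins. M took 30.6% against 27.6%. In priB WT cells 36.4% of end bins were E (34.7 to 38.2%) with 29.7% over all autosomal bins, 39.2% were M with 32.2%, and 24.4% were L (22.9 to 26.0%) with 38.1%. The MEF WT map gave 42.5% E (40.7 to 44.3%) with 32.8% over all bins, 37.7% M with 38.7%, and 19.8% L (18.4 to 21.3%) with 28.5%. In all 3 maps the ends thus lay above the autosomal share for E and below it for L. The adjacent 3 Mb inward also held less L than the autosomes, with 34.5% in CH12 shLacZ, 25.3% in priB WT and 24.4% in MEF WT cells, so a low L share was shared with the neighbouring sequence. These intervals cover counting over bins alone, and neighbouring bins are not independent. The autosomal M shares include wholly unknown bins that were called M, 3521 in CH12 shLacZ, 750 in priB WT and 3317 in MEF WT. The ends held 1 wholly unknown bin, so their M shares and the autosomal ones are not fully alike in what they count.

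The 19 ends differed widely among themselves. The E share per end was 35.9% ± 31.3 in CH12 shLacZ, 36.4% ± 27.8 in priB WT and 42.5% ± 36.5 in MEF WT cells (SD, n = 19 ends). Windows of the same length elsewhere were about as spread, with an SD of 32.6 for the next 3 Mb inward and 30.7 for the first 3 Mb of known sequence at the centromere side in the CH12 shLacZ map. Ends 3, 17 and 18 had 0 E bins in every map. By contrast, E filled over 75 of 150 bins at ends 2, 9, 11 and 15 in every map. No L bin was called at 5 ends in CH12 shLacZ, 8 in priB WT and 10 in MEF WT cells, and ends 7, 8, 9, 11 and 15 were free of L in all 3 maps.

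**Figure D1:**
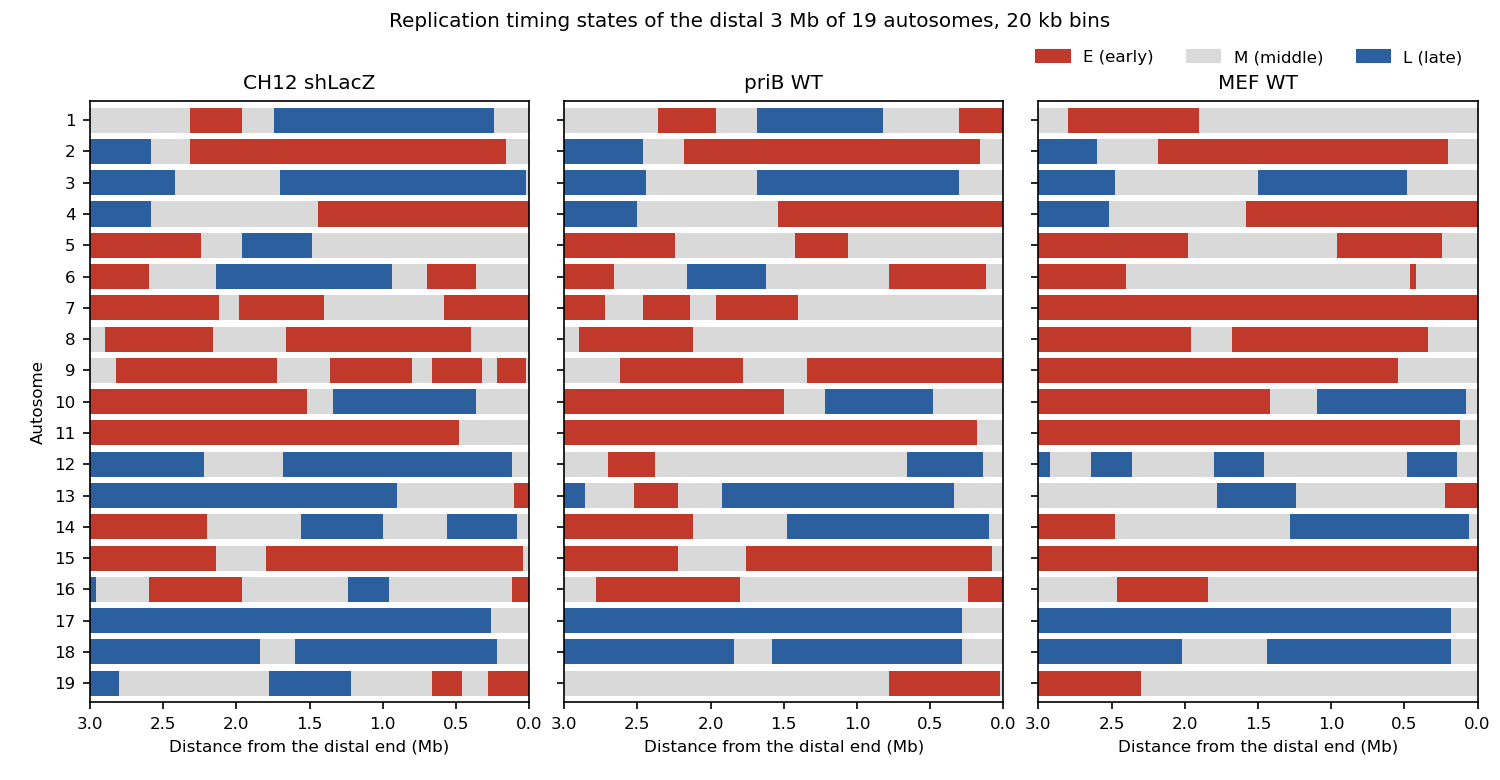
Timing state of each 20 kb bin of the distal 3 Mb of the 19 autosomes (rows) by distance from the distal end in Mb (horizontal axis, end at the right), in the CH12 shLacZ, priB WT and MEF WT maps; red is E, grey M and blue L. Ends 2, 9, 11 and 15 are mostly red and ends 3, 17 and 18 have no red in any map, while the last bin at the right margin is blue in 0 of 19 ends.

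Set against the rest of the same autosome, the loss of L was the more regular of these differences, and none passed the test after adjustment. In CH12 shLacZ cells the L share was lower at the end at 14 of 19 autosomes, with a median difference of -23.3 percentage points (exact two-sided sign test, p = 0.0636, Benjamini-Hochberg adjusted p = 0.233 over 11 tests). In priB WT cells it was lower at 15 of 19, with a median of -22.8 points (exact sign test, p = 0.0192, adjusted p = 0.211). In the MEF WT map it was lower at 14 of 19, with a median of -16.1 points (exact sign test, p = 0.0636, adjusted p = 0.233). The L share thus fell short of the rest of the autosome at most ends, but 4 or 5 ends in each map went the other way. Its mean difference was smaller, at -15.0, -13.1 and -8.20 points in CH12 shLacZ, priB WT and MEF WT cells. The SDs over autosomes were 31.7, 29.3 and 28.0 points. End 17 was the extreme in every map, with 91.3%, 90.7% and 94.0% L at the end in CH12 shLacZ, priB WT and MEF WT cells, or 48.4, 56.5 and 68.0 points more than the rest of autosome 17.

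The E share was higher at the end at 11, 12 and 9 of 19 autosomes in CH12 shLacZ, priB WT and MEF WT cells (exact sign tests, adjusted p = 1, 0.659 and 1). Its mean difference was 12.2, 6.39 and 9.52 points, with SDs over autosomes of 28.8, 24.6 and 33.5, and its median difference was 4.62, 7.87 and -0.54 points. The median turned negative in both B cell maps when the end was shortened, to -7.62 and -20.7 points with the last 1 Mb and to -6.56 and -8.30 points with the last 2 Mb in CH12 shLacZ and priB WT cells. A few ends carried the surplus. At autosome 15 the E share was 87.3% at the end and 64.6 points above the rest in CH12 shLacZ cells, and 53.3 points above in priB WT cells. At autosome 7 it was 100% in the MEF WT map, 66.3 points above the rest.

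**Figure D2:**
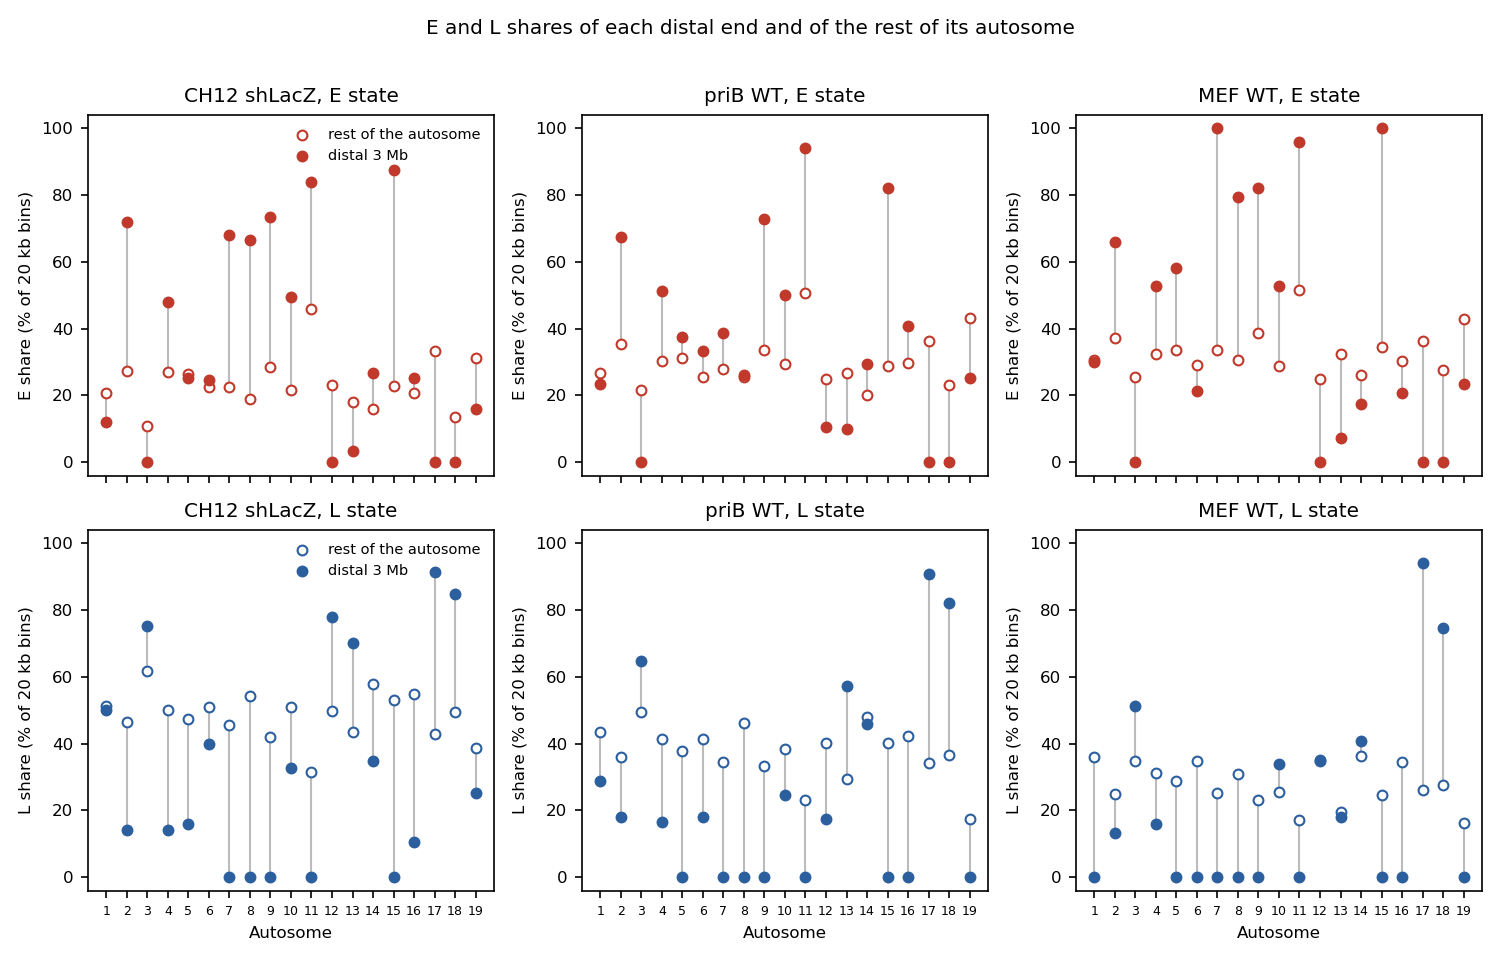
Share of 20 kb bins (percent) in the E state (upper row) and the L state (lower row) for the distal 3 Mb (filled points) and for the rest of the same autosome (open points), by autosome and map, with a grey line joining each pair; there are no replicates and no error bars. In the priB WT map the filled L point lies below the open point at 15 of 19 autosomes, and autosome 17 is the largest exception in each map.

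State shares changed with distance from the end. Over the outermost 100 kb, which holds 95 bins of 19 ends, M took 61.1% of bins in CH12 shLacZ, 73.7% in priB WT and 75.8% in MEF WT cells. L took 5.26%, 0% (0 of 95 bins, which came from 19 ends) and 3.16% there. Moving inward, L rose and M receded within the first Mb. Between 1 and 2 Mb from the end the CH12 shLacZ map had 29.9% E, 27.7% M and 42.4% L, the priB WT map 29.1%, 44.1% and 26.8%, and the MEF WT map 37.7%, 45.5% and 16.8%. E was most frequent in the innermost Mb, between 2 and 3 Mb from the end, at 44.7%, 45.8% and 54.0%. The next 3 Mb inward stayed close to or above the ends, with 35.1%, 38.8% and 52.5% E. The outermost 100 kb held less than that, with 33.7%, 26.3% and 21.1% E. GC content rose inward over the same range, from 40.7% in the last 100 kb to 45.0% between 2 and 3 Mb, whereas protein-coding gene starts per Mb did not follow it, with 14.2 in the last 100 kb and 11.5 between 2 and 3 Mb.

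**Figure D3:**
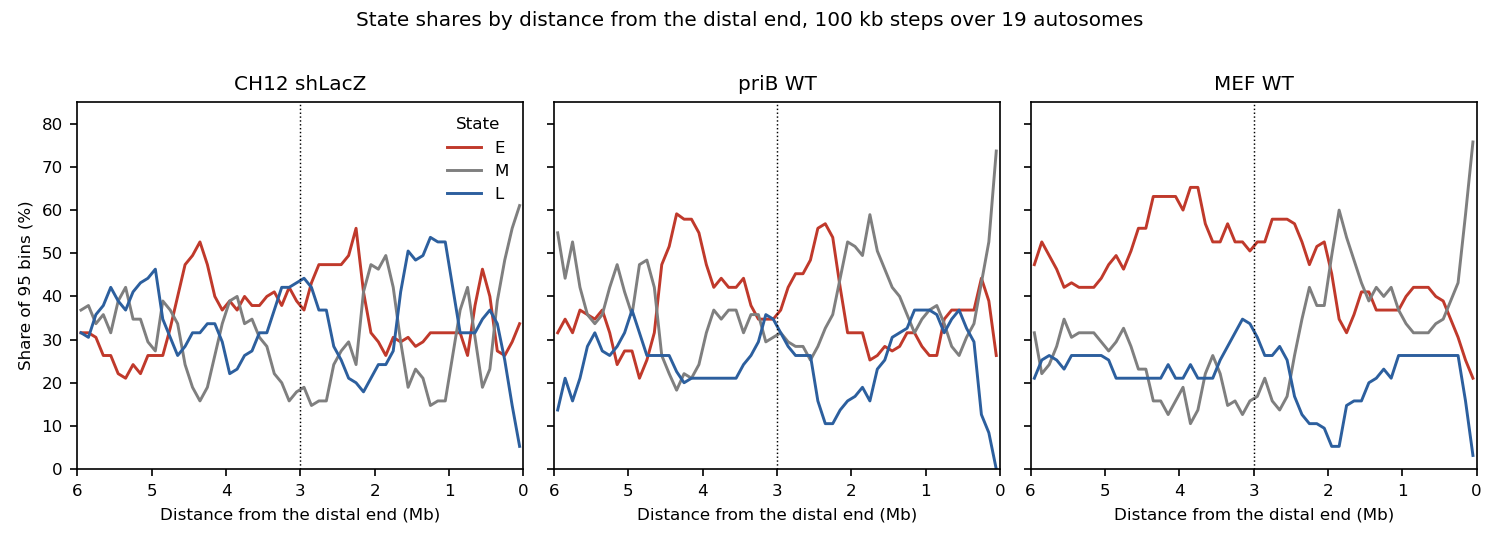
Share of bins (percent) in the E (red), M (grey) and L (blue) state by distance from the distal end in Mb, in 100 kb steps of 95 bins over 19 autosomes, for each map; the dotted line at 3 Mb marks the inner limit of the ends. In all 3 maps M climbs and L drops towards the last step at the right, where M reaches 61.1%, 73.7% and 75.8%.

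No autosome ended in an L domain in any map. The last bin was M at 14 ends and E at 5 in CH12 shLacZ, and M at 15 ends and E at 4 both in priB WT and in MEF WT cells, although 48.7%, 38.1% and 28.5% of autosomal bins were L. At 11 ends it was M in all 3 maps. The median terminal M domain spanned 224 kb in CH12 shLacZ (16.2 to 1477 kb), 272 kb in priB WT (2.43 to 2119 kb) and 237 kb in MEF WT cells (54.9 to 2282 kb), where the medians over all autosomal M domains were 380, 440 and 620 kb. They were up to 300 kb long at 9 of 14, 10 of 15 and 8 of 15 ends. The end of the assembly cuts these domains off, so their lengths are not those of whole domains. They closed off late ends as well as early ones, since the inner neighbour of the terminal M domain was L at 8 ends and E at 6 in CH12 shLacZ, L at 7 and E at 8 in priB WT, and L at 6 and E at 9 in MEF WT cells. The end of autosome 17, for example, was L from its inner limit until an M domain of 253, 273 and 173 kb in the 3 maps. Autosome 4 alone ended in E in all 3 maps, in a domain of 1430, 1530 and 1570 kb. At the centromere side, the first bin with known sequence was L at 11 of 19 autosomes and M at 8 in CH12 shLacZ cells, L at 3 and M at 16 in priB WT, and L at 7 and M at 12 in MEF WT cells, so it was E at 0 of 19. The authors smoothed RT over 300 kb before the states were called, a span longer than the median terminal M domain. In the CH12 shLacZ map, 3521 of the 3785 wholly unknown bins of the autosomes were called M. The part of smoothing and missing signal in the M tips was not tested.

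The ends differed in gene content too. They held 731 protein-coding gene starts of 21418 on the autosomes (3.41%, in 2.31% of the bins), from 3 at end 17 to 131 at end 10. Per Mb of known sequence the ends averaged 12.9 ± 11.8 starts and the rest of the autosomes 8.96 ± 2.59 (SD, n = 19). The density was nonetheless higher at only 9 of 19 ends, with a median difference of -0.80 starts per Mb (exact sign test, adjusted p = 1), since a few dense ends raised the mean. GC content averaged 43.4% ± 3.84 at the ends and 41.9% ± 0.817 elsewhere, and was higher at 13 of 19 ends (median difference 0.81 points, exact sign test, adjusted p = 0.368). The extremes were end 4 at 50.1% and end 17 at 37.6%.

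Across the 19 ends the E share followed GC content and gene density. With GC content, Pearson's r was 0.81 in CH12 shLacZ, 0.83 in priB WT and 0.81 in MEF WT cells, and Spearman's rho 0.80, 0.85 and 0.83. With gene density, Pearson's r was 0.72, 0.78 and 0.65, and Spearman's rho 0.84, 0.92 and 0.78. These are descriptions over ends that share the same genome in each map, and gene density was used to check the names of the states. Some ends departed from the order. End 8 had only 4.33 protein-coding starts per Mb and was 66.7% E in CH12 shLacZ and 79.3% E in MEF WT cells, but 26.0% in priB WT cells. End 4, the GC-richest, was 48.0%, 51.3% and 52.7% E. Autosomal bins were split by GC content into 5 classes of equal size, to set ends and rest side by side at like composition. In the highest class (45.5% and over), which held 34.7% of end bins, E took 66.1% at the ends and 63.2% elsewhere in CH12 shLacZ, 63.6% and 68.3% in priB WT, and 79.1% and 76.6% in MEF WT cells. L took 7.09% and 9.62%, 5.06% and 4.61%, and 4.45% and 2.05% there. In the middle class (40.3 to 42.6%) E took 27.2% and 15.9% in CH12 shLacZ, 24.2% and 23.3% in priB WT, and 27.7% and 27.1% in MEF WT cells. L was lower at the ends in that class in each map, with 35.3% and 50.7%, 15.7% and 32.5%, and 10.5% and 19.1%. Giving the rest the GC classes of the ends moved its E share from 24.2 to 31.9% in CH12 shLacZ, from 29.7 to 37.5% in priB WT and from 33.6 to 42.3% in MEF WT cells, and its L share from 50.4 to 42.0%, from 38.7 to 31.6% and from 29.3 to 23.6%. The E share of the ends was then 1.12-fold, 0.97-fold and 1.00-fold that of the rest, where it had been 1.48-fold, 1.22-fold and 1.26-fold. The L share remained lower at the ends, at 0.80-fold, 0.77-fold and 0.84-fold that of the rest, where it had been 0.66-fold, 0.63-fold and 0.68-fold.

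**Figure D4:**
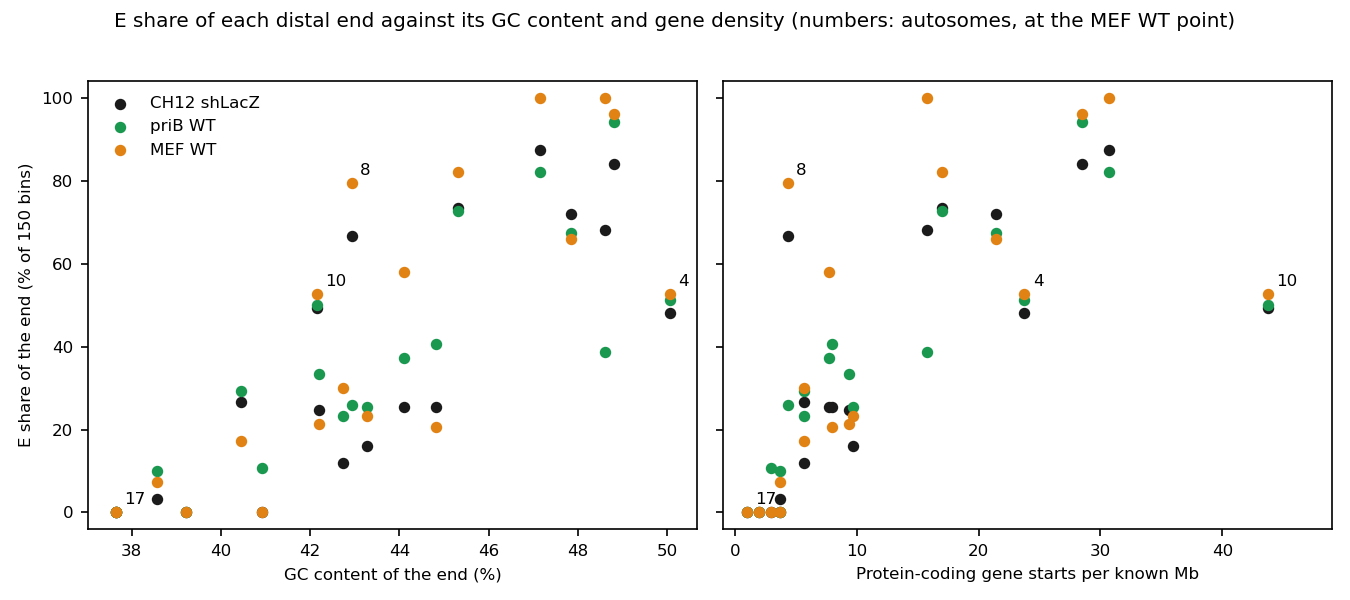
E share of each end (percent of 150 bins) against its GC content in percent (left) and its protein-coding gene starts per known Mb (right); each point is an end in a map, black for CH12 shLacZ, green for priB WT and orange for MEF WT, and numbers name autosomes at their MEF WT point. E shares rise with both features, from 0% at end 17 (37.6% GC), and end 8 stands above ends of like gene density in the CH12 shLacZ and MEF WT maps.

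The question of whether ends keep their timing between cell types was described bin by bin. The same state was called in all 3 maps in 1686 of 2850 end bins (59.2%) against 54.7% of the rest, from 33 bins at end 13 to 145 at end 17. CH12 shLacZ and priB WT cells shared the state in 77.1% of end bins (Wilson 95% interval 75.5 to 78.6%; Cohen's kappa, which allows for agreement by the shares alone, 0.66) and in 76.2% of the rest. CH12 shLacZ and MEF WT shared it in 69.7% (68.0 to 71.4%, kappa 0.55) and 62.6% of the rest, and priB WT and MEF WT in 70.4% (68.7 to 72.0%, kappa 0.54) and 68.5% of the rest. The same-state share was higher at the end at 10, 13 and 10 of 19 autosomes for these pairs (exact sign tests, adjusted p = 1, 0.368 and 1), with median differences of 2.61, 12.6 and 12.5 points. The mean differences were smaller, at 1.13, 7.04 and 1.56 points, with SDs over autosomes of 17.6, 20.2 and 20.8. Between the B cell maps the same-state share ranged across ends from 39.3% at end 12 to 99.3% at end 17.

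Bins E in all 3 maps numbered 790 (27.7% of end bins, with 19.3% of all autosomal bins), spread over 13 ends. Their 3 longest runs lay on autosomes 11, 2 and 15. The run on autosome 11 (chr11:118860001-121380000, 2520 kb) held 79 protein-coding starts, among them the Polycomb genes Cbx2 and Cbx8, Rptor, which encodes a subunit of the growth regulator mTORC1, and Actg1, which encodes an actin. The run on autosome 2 (chr2:179580001-181560000, 1980 kb) held 59 starts, among them Rtel1, a helicase that maintains telomeres. The run on autosome 15 (chr15:101740001-103420000, 1680 kb) held 57 starts, among them the Hoxc cluster. These runs were gene-dense, and 441 of the 731 end genes (60.3%) started in bins E in all 3 maps, as did 45.8% of all autosomal genes.

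Bins L in all 3 maps numbered 473 (16.6%, with 24.6% of all autosomal bins), and bins M in all 3 maps 423 (14.8%, with 10.8%). The longest L run (chr17:92280001-95000000, 2720 kb) held 1 protein-coding start, Adcyap1, which encodes the neuropeptide PACAP. The next was 1160 kb on autosome 18 with Cd226, a receptor on T and NK cells, and Dok6, and the one after it 1020 kb on autosome 3 with Lrrc7. These 3 runs were gene-poor, but a run on autosome 10 (chr10:128900001-129520000, 620 kb) held 32 starts. In all, 42 of 731 end genes (5.75%) started in bins L in all 3 maps, against 7.73% of all autosomal genes, and 31 of the 42 were olfactory receptors.

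Where the B cell maps differed at the ends, priB WT was more often the earlier. It was earlier in 446 end bins (15.6%, with 20.1% of all autosomal bins) and later in 206 (7.23%, with 3.67%). The later bins lay at 10 of 19 ends, most of them at ends 8 (63), 7 (44), 13 (33) and 14 (22). Of the 145 end bins E in CH12 shLacZ and M in priB WT cells, 63 lay on autosome 8 and 44 on autosome 7. By autosome, 9 ends had only earlier bins in priB WT, 3 had only later bins (2, 7 and 15) and 7 had both.

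The run on autosome 8 (chr8:130080001-131340000, 1260 kb) was E in CH12 shLacZ and MEF WT and M in priB WT cells, and held Itgb1, the integrin beta 1 gene, and Nrp1, a receptor for semaphorins and VEGF. On autosome 7 the outermost 29 bins of the end (chr7:151960001-152524553) had the same order, with Ccnd1 (cyclin D1, which drives entry into S phase), the growth factor genes Fgf3, Fgf4 and Fgf15 and the Mas-related receptor genes Mrgprf and Mrgprd. These stretches were chosen after their states were seen. The primary B cells had a later call than both the lymphoma line and the fibroblasts there. This order, E in CH12 shLacZ and MEF WT and M in priB WT cells, held over 137 end bins (4.81%, and 1.22% of the rest). Another 36 end bins (1.26%, and 0.849% of the rest) were L in priB WT cells and M in both other maps.

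**Figure D5:**
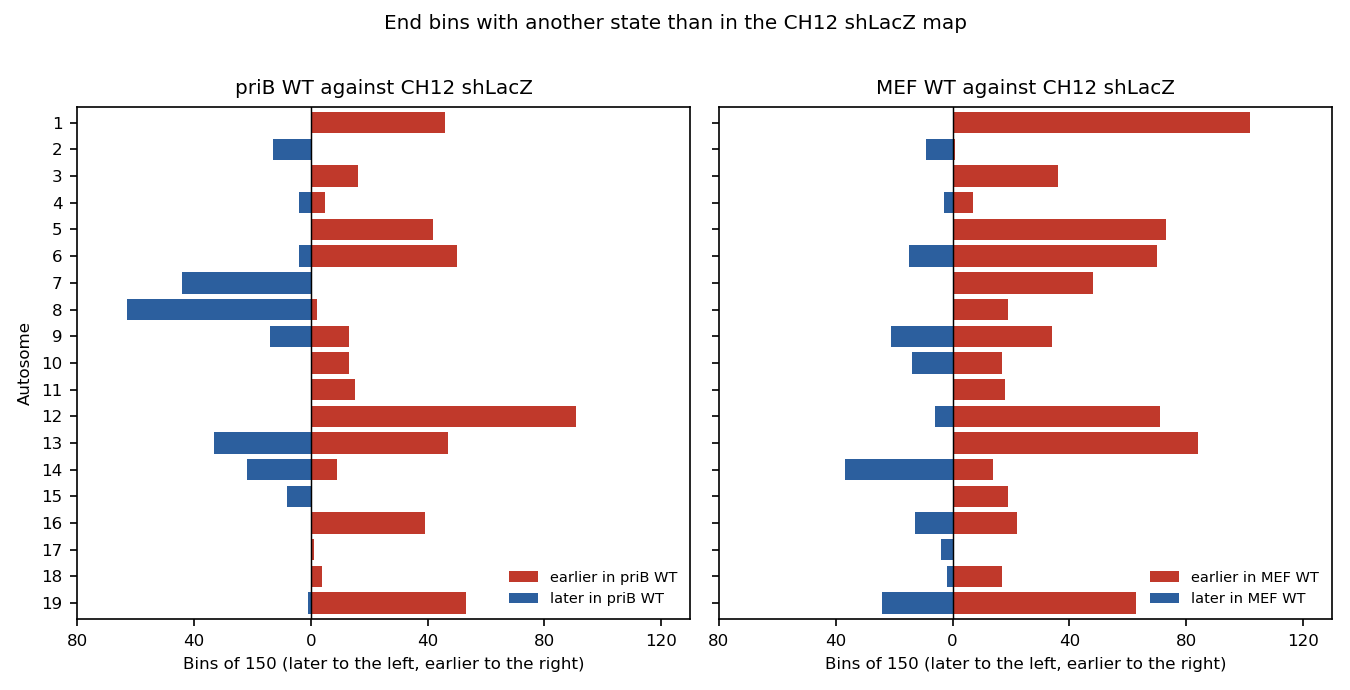
Number of the 150 bins of each end that were earlier (red, to the right) or later (blue, to the left) in priB WT (left panel) or MEF WT (right panel) than in CH12 shLacZ cells, by autosome. In the left panel the blue bars are longest at autosomes 8 and 7 (63 and 44 bins) and the red bar at autosome 12 (91 bins), while in the right panel red exceeds blue at most ends and is longest at autosome 1 (102 bins).

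Opposite calls, E in one map and L in another, held for 44 end bins in 5 runs, and their shares lay above or below the autosomal ones depending on the pair of maps. L in CH12 shLacZ and E in priB WT held for 34 end bins (1.19%, with 0.685% of all autosomal bins), and the reverse for 0. The longest run (chr13:117780001-118080000, 300 kb) held Emb, which encodes the adhesion protein embigin, Parp8, which encodes an ADP-ribosyltransferase, and Gm17509, and was M in MEF WT. The second (chr12:118620001-118880000, 260 kb) held Rapgef5, a Rap exchange factor, and was L in MEF WT. E in priB WT and L in MEF WT held for 13 end bins (0.456%, with 0.283% of all autosomal bins), all on autosome 12. L in CH12 shLacZ and E in MEF WT held for 10 end bins in 1 run (chr19:58360001-58560000) with Gfra1, a GDNF receptor. In both of the first runs the primary B cells stood at E where the lymphoma line stood at L. Across all autosomes L in CH12 shLacZ and E in MEF WT took 3.12% of bins, against 0.351% of end bins. End 12 was the least alike in the B cell maps, with 75 bins L in CH12 shLacZ and M in priB WT cells, among them those around Sp8, Abcb5 and Itgb8. These genes were chosen after their states were seen.

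Protein-coding genes at the ends started mostly in E. In CH12 shLacZ cells 495 of 731 (67.7%) did, 152 (20.8%) were in M and 84 (11.5%) in L, whereas 51.8% of all 21418 autosomal genes started in E and 21.3% in L. In priB WT cells 505 (69.1%, 59.2% of all genes) and in MEF WT cells 528 (72.2%, 61.1% of all genes) did. L held 55 end genes (7.52%) in each of the latter maps, against 12.6% and 11.0% of all genes. The outermost protein-coding gene lay between 2.80 kb (Gm7120, autosome 13) and 193 kb (Cr2, autosome 1) from the last base. It was E in all 3 maps at ends 4 (Klhl17) and 15 (Glycam1, a ligand of L-selectin), and L in all 3 maps at end 14 (Fgf14).

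Gene groups that sit at the ends kept a common state in some cases and were split in others. All 9 genes of the Hoxc cluster on autosome 15 (chr15:102751534-102867274), which pattern the body axis, were E in all 3 maps and started 646 to 743 kb from the end. On the same end lay 24 of 51 listed keratin genes, which encode filament proteins of epithelia. Of these, 8 were E in all 3 maps, and the others had different calls in the 3 maps. In the MEF WT map all 24 were E, while in CH12 shLacZ 12 were E and 12 M, and in priB WT 8 were E and 16 M. The 12 keratins from Krt84 to Krt1 in the middle of the cluster were M in both B cell maps and E in MEF WT, whereas Krt8 and Krt18, the keratins of simple epithelia, were E in all 3.

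The Igf2 and Kcnq1 imprinted domains at the end of autosome 7 hold many genes expressed from a single parental copy. Their genes were placed by their starts, most of which were early. Part of the body of Kcnq1 was M in both B cell maps and E in MEF WT. All 13 genes found were E in CH12 shLacZ and MEF WT cells, including H19, Cdkn1c, which encodes a cell cycle inhibitor, and Phlda2. In priB WT cells 11 were E, and Igf2, a fetal growth factor, and Ins2, an insulin gene, were M. Cd81, which encodes a part of the B cell coreceptor, was E in all 3 maps. On autosome 4 the receptor genes Tnfrsf4, Tnfrsf18 and Tnfrsf14 were E in all 3 maps, as 3 of 7 listed members that lie in an end.

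Immune gene clusters at other ends had different calls in the 3 maps. The chemokine receptor cluster on autosome 9, with 7 of the 8 genes described in the end, was E in priB WT at all 7 and M in MEF WT at all 7. In CH12 shLacZ it was E at 6, including Ccr9, a gut homing receptor, and Ccr2, and M at Xcr1. All 7 lay within the terminal domain of that end in priB WT (1336 kb) and in MEF WT (536 kb), so their calls are not separate observations. Of all autosomal genes, 3.69% were E, E and M in the order CH12 shLacZ, priB WT and MEF WT, and 3.21% were M, E and M. On autosome 1 the complement receptor gene Cr2, which encodes the B cell coreceptor CD21, was M in CH12 shLacZ, E in priB WT and M in MEF WT cells. Its neighbours Cd46 and Cr1l, complement regulators, were L in CH12 shLacZ, E in priB WT and M in MEF WT, and Cd34, a surface marker of blood stem cells, was L, M and M. The lymphoma line thus stood later than the primary B cells at all 4 of these genes, which are neighbours on the same end. Over all autosomal bins, 20.1% were earlier in priB WT than in CH12 shLacZ cells and 3.67% were later. The interferon-induced antiviral genes Mx1 and Mx2 on autosome 16 were M in all 3 maps.

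Among genes of lymphocytes and of the cell cycle, most of those at the ends were early. The same holds for end genes of any kind, of which 60.3% started in bins E in all 3 maps. Of 11 B cell and lymphocyte genes, 6 lie in an end, and Stat6, which carries the IL-4 signal, Cd63, Cd7, Itgb7 and Cd81 were E in every map while Cd226 was L in every map. Of 12 genes of replication, mitosis and repair, 8 lie in an end. Rtel1, Prim1 (a primase subunit), Timeless (a fork protection factor), Cdk2 and Espl1 (separase) were E in all 3 maps, and Rfc3, part of the clamp loader, was M in all 3. Brca2, which acts in homologous recombination, was M in CH12 shLacZ and MEF WT and E in priB WT cells, and Ccnd1 was E, M and E in the order CH12 shLacZ, priB WT and MEF WT. The olfactory receptors, which are expressed in the nasal epithelium, formed the late contrast. Of the 58 at the end of autosome 10, 46 were L, 9 M and 3 E in CH12 shLacZ, 35 were L, 19 M and 4 E in priB WT, and 36 were L, 14 M and 8 E in MEF WT cells. Of these, 31 from Olfr788 to Olfr822 were L in every map, between 482 and 1084 kb from the end. Cdk2, Timeless, Prim1 and Stat6, which were E in every map, started farther in on the same end, 1851 to 2913 kb from it.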

How the data were processed

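The deposited maps hold start, end and a state number per domain (other values, with no unit), made by the authors. Per the methods and the submitters' processing notes, reads were trimmed (Trim Galore 0.6.5), aligned to mm9 (BWA 0.7.17), filtered (SAMtools 1.9), merged over replicates and turned into log2 early over late ratios in 20 kb windows with deepTools; these were smoothed by loess over 300 kb and segmented with a hidden Markov model. Smoothing blurs domain edges, and merging removes replicate spread. Chromosome lengths equalled those of NCBIM37 (mm9), which gave base composition, and GENCODE M1 gave genes, placed by their start. In priB WT, 2870 autosomal bins outside the ends had no state and were left out. Bins at the ends all had one. Sign tests over 19 autosomes were exact and two-sided, with Benjamini-Hochberg adjustment over 11 tests. Autosomes of 1 map share libraries, so p-values measure how regular the direction of a difference was over autosomes. They measure neither its size nor the error between replicates. The members, gene groups and tests were chosen with earlier results of these data known. Genes named were the outermost of each autosome, those in the 3 longest runs of each class and fixed groups, or are said to be chosen otherwise. Some items named by it are not reported here. Alternatives were other end lengths (1, 2 and 5 Mb), unknown bins left out, base pairs for bins, other comparison regions, bins near domain edges left out, all gene types, and each autosome left out. Functions were tested on simulated data. The remaining 5 groups were not analysed here. The code ran under Python 3.11.15 with scipy 1.17.1, pandas 2.3.3, matplotlib 3.10.9 and numpy 2.4.6.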

Additional observations from a re-analysis of the deposited data

How the results depend on the processing

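Of 101 alternatives that left out no autosome, 71 kept the direction and side of the threshold, or stayed within the Wilson interval. Over all alternatives the lowest adjusted sign-test p was 0.0829, so none passed. With the last 1 Mb as the end, the E share was 33.1% in CH12 shLacZ, 34.4% in priB WT and 35.7% in MEF WT cells. The L share was 28.7% in CH12 shLacZ and 22.9% in MEF WT cells. The same-state share was 71.5% for CH12 shLacZ with priB WT and 62.7% for priB WT with MEF WT. With the last 2 Mb, the E share was 31.5%, 31.7% and 36.7% in the order CH12 shLacZ, priB WT and MEF WT, and the L share was 35.6% in CH12 shLacZ and 26.4% in priB WT cells. The same-state shares were 74.2% for CH12 shLacZ with priB WT, 66.8% for CH12 shLacZ with MEF WT and 68.2% for priB WT with MEF WT. With the last 5 Mb, the E share was 38.6% in priB WT and 47.9% in MEF WT cells, and the L share 21.5% in MEF WT cells. Leaving out bins within 100 kb of a domain edge raised the same-state shares to 84.8%, 77.6% and 77.0%. The median difference between end and rest changed sign for E with the last 1 Mb (-7.62 points in CH12 shLacZ, -20.7 in priB WT) and the last 2 Mb (-6.56 and -8.30). In MEF WT cells it turned to 19.2 points with the last 5 Mb and to 6.67 against the first 3 Mb of known sequence. For the same state in CH12 shLacZ and priB WT it turned to -0.26 and -3.85 points with the last 1 and 2 Mb, and with all annotated genes the difference in gene starts turned to 0.53 per Mb. The cause was not tested. Leaving out each autosome in turn gave E shares of 33.0 to 37.9% in CH12 shLacZ, 33.2 to 38.4% in priB WT and 39.3 to 44.8% in MEF WT cells. L shares were 30.3 to 35.4%, 20.7 to 25.8% and 15.7 to 20.9%. Same-state shares were 75.9 to 79.2%, 68.2 to 71.8% and 68.9 to 72.1%. The median E difference in MEF WT cells ranged from -4.12 to 9.85 points. Between replicates, no paired analysis was possible because each condition has 1 map of merged replicates, while the sign tests pair each end with the rest of its autosome.

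The maps set the limits. They give neither depth nor RT values, state borders are blurred over the smoothing span, and each cell type has 1 map. The RT limits of E, M and L are unknown in each map, so a change of state between cell types has no known size in RT.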
